A study of Homo sapiens with 72 samples.

Results

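NONHSAG032124.2, NONHSAG024901.2, NONHSAG043018.2 and NONHSAG067779.1 are 4 of the 96411 human long non-coding RNA (lncRNA) genes whose levels were deposited for this series. They were chosen by their measured rise: each was higher after TGF-β treatment in all 3 breast cell lines, with the largest change in MDA-MB-231. That choice used the measured TGF-β response, so every value of the TGF-β arm is a description of these genes and carries no test here. At 24 h of TGF-β mean levels were 4.32 to 28.0 times those at 0 h in MDA-MB-231, 2.58 to 4.51 times in MCF10A-M2 and 1.88 to 2.72 times in MCF10A-M1. On the log2 scale of the deposited values the change was largest in MDA-MB-231 for 3 of the 4 genes. For NONHSAG067779.1 it was 2.1 in MDA-MB-231 beside 2.17 in MCF10A-M2. The name "strongest in MDA-MB-231" thus holds for 3 of them on that scale, and for 2 after rescaling the libraries by the median of ratios. In TPM the increase was largest in MDA-MB-231 for NONHSAG067779.1 alone. The genes also differed in what they did under an inhibitor of the TGF-β receptor. Whether the choice used the libraries with the inhibitor is not recorded. Past the test threshold on the deposited scale, NONHSAG032124.2 fell with the inhibitor in all 3 lines and NONHSAG067779.1 in both MCF10A lines. NONHSAG043018.2 rose in both MCF10A lines. NONHSAG024901.2 fell early in MCF10A-M1 and rose late in MCF10A-M2, calls that were lost when some of the libraries were left out in turn. With 24 h of the inhibitor in MDA-MB-231, NONHSAG043018.2 (log2 change 1.07), NONHSAG024901.2 (1.02) and NONHSAG067779.1 (-0.57) missed the threshold on the deposited scale. These MDA-MB-231 changes passed after rescaling, so a missed threshold there does not show that a gene was unchanged.

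MDA-MB-231 cells come from a triple-negative breast cancer, MCF10A-M2 (M2) is the non-malignant mammary epithelial line MCF10A transformed with HA-Ras, and MCF10A-M1 (M1) is the non-malignant MCF10A line itself. Cells of each line were kept without serum overnight. They then received TGF-β at 5 ng/mL or SB431542 (SB) at 10 µM, for 2, 8 or 24 h, and a vehicle for each agent, the ligand's buffer and DMSO, is named in the protocols. The libraries labelled TGF-β 0 h are the non-stimulated cells. The titles of the first SB libraries read 0 h and the treatment field reads 0.5 h, so they are called the earliest SB libraries here. No vehicle control at 2, 8 or 24 h is labelled, so time in culture and treatment cannot be told apart within an arm. Each of the 24 groups of line, agent and hour has 3 libraries, described as biological replicates, 72 in all.

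TGF-β is a secreted signalling protein that binds a pair of type I and type II receptor kinases at the cell surface, and the activated type I receptor phosphorylates SMAD transcription factors, which enter the nucleus and change transcription of their target genes. SB431542 blocks the kinase activity of the type I receptor, and so also the response to ligand that cells make themselves. In breast epithelial cells the pathway slows growth and can drive the epithelial to mesenchymal transition, and lncRNAs are among the transcripts that respond to it. The identifiers of the 4 genes come from the NONCODE catalogue. None was found by identifier in the gene annotations used here, and no search by position or sequence was made. No position, symbol, sequence or function is therefore given for them. Protein-coding TGF-β targets and markers of the cell lines were not analysed here.

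Levels are in TPM, a measure of transcript share per length that here sums over lncRNA genes alone. Read depth cannot be recovered from it and is unknown, and no counting interval is given. Between 8458 and 16748 lncRNA genes reached 0.5 TPM in a library, and the top 10 genes of each library took 56.7% to 78.8% of the total. In M2 fewer genes were detected at 24 h in both arms, with 8458 to 10138 genes at 0.5 TPM after TGF-β against 12533 to 14232 at 0 h, and 9261 to 9342 after 24 h of SB against 12430 to 14299 in the earliest SB libraries. After 24 h of TGF-β, M1 had 14205 to 15597 genes at 0.5 TPM against 15619 to 16239 at 0 h. MDA-MB-231 had 10144 to 11955 against 11283 to 13661. The part of these shifts in the results was not tested, and M2 changes are given also after a rescaling of the libraries by the median of ratios. These are bulk samples, in which fewer cells of a kind and less RNA per cell cannot be told apart. None of the 4 genes was at 0 in any library. NONHSAG067779.1 was the most abundant, with a median of 177 TPM and a median rank of 282 among all lncRNA genes, and NONHSAG043018.2 the least, with a median of 4.49 TPM and a median rank of 5233. NONHSAG032124.2 had a median of 80.4 TPM and NONHSAG024901.2 of 95.9 TPM.

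NONHSAG032124.2 had the widest range of the 4 genes. In MDA-MB-231 it was very low without ligand and after ligand reached levels near the untreated ones of the MCF10A lines. Under TGF-β its TPM in the 3 MDA-MB-231 libraries was 4.80, 5.36 and 1.85 at 0 h, 128, 88.8 and 91.7 at 2 h, 135, 145 and 164 at 8 h, and 124, 91.7 and 120.1 at 24 h. M2 cells given TGF-β had 95.1, 77.3 and 105 TPM at 0 h, 228, 152 and 154 at 2 h, 148, 246 and 271 at 8 h, and 253, 212 and 251 at 24 h. For M1 cells given TGF-β the values were 78.6, 97.9 and 76.2 TPM at 0 h, 166, 165 and 264 at 2 h, 233, 277 and 251 at 8 h, and 207, 216 and 265 at 24 h. In each line every library at 2, 8 or 24 h lay above the 3 libraries at 0 h. At 2 h the mean was already 25.7 times that at 0 h in MDA-MB-231, 1.92 times in M2 and 2.36 times in M1. The 24 h difference on the log2 scale was 4.74 ± 0.30 (SE) in MDA-MB-231, 1.37 ± 0.28 in M2 and 1.44 ± 0.18 in M1. In TPM the order was another, with an increase of 108 TPM in MDA-MB-231, 146 TPM in M2 and 145 TPM in M1. The mean at 24 h of TGF-β was 112 ± 17.7 TPM in MDA-MB-231 (SD, n = 3 here and below), lower than the 239 ± 23.4 TPM in M2 and the 229 ± 31.6 TPM in M1, with no overlap of libraries between MDA-MB-231 and either other line.

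Under the receptor inhibitor NONHSAG032124.2 moved the other way in every line. With SB, MDA-MB-231 libraries had 3.85, 4.54 and 6.61 TPM at the earliest time, 6.5, 3.59 and 4.0 at 2 h, 1.80, 1.73 and 3.17 at 8 h, and 1.78, 1.12 and 1.13 at 24 h. M2 libraries with SB had 94.6, 100.0 and 143 TPM at the earliest time, 75.9, 50.1 and 43.5 at 2 h, 11.5, 11.6 and 23.6 at 8 h, and 13.3, 10.4 and 8.67 at 24 h. Those of M1 had 82.1, 96.7 and 90.8 TPM at the earliest time, 52.8, 64.0 and 72.3 at 2 h, 7.27, 8.53 and 6.31 at 8 h, and 5.81, 5.42 and 8.11 at 24 h. The 8 h and 24 h libraries lay below the earliest ones in all 3 lines. Set arm against arm at 24 h, the TGF-β mean was 83.3 times the SB mean in MDA-MB-231, 22.1 times in M2 and 35.6 times in M1.

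**Figure D1:**
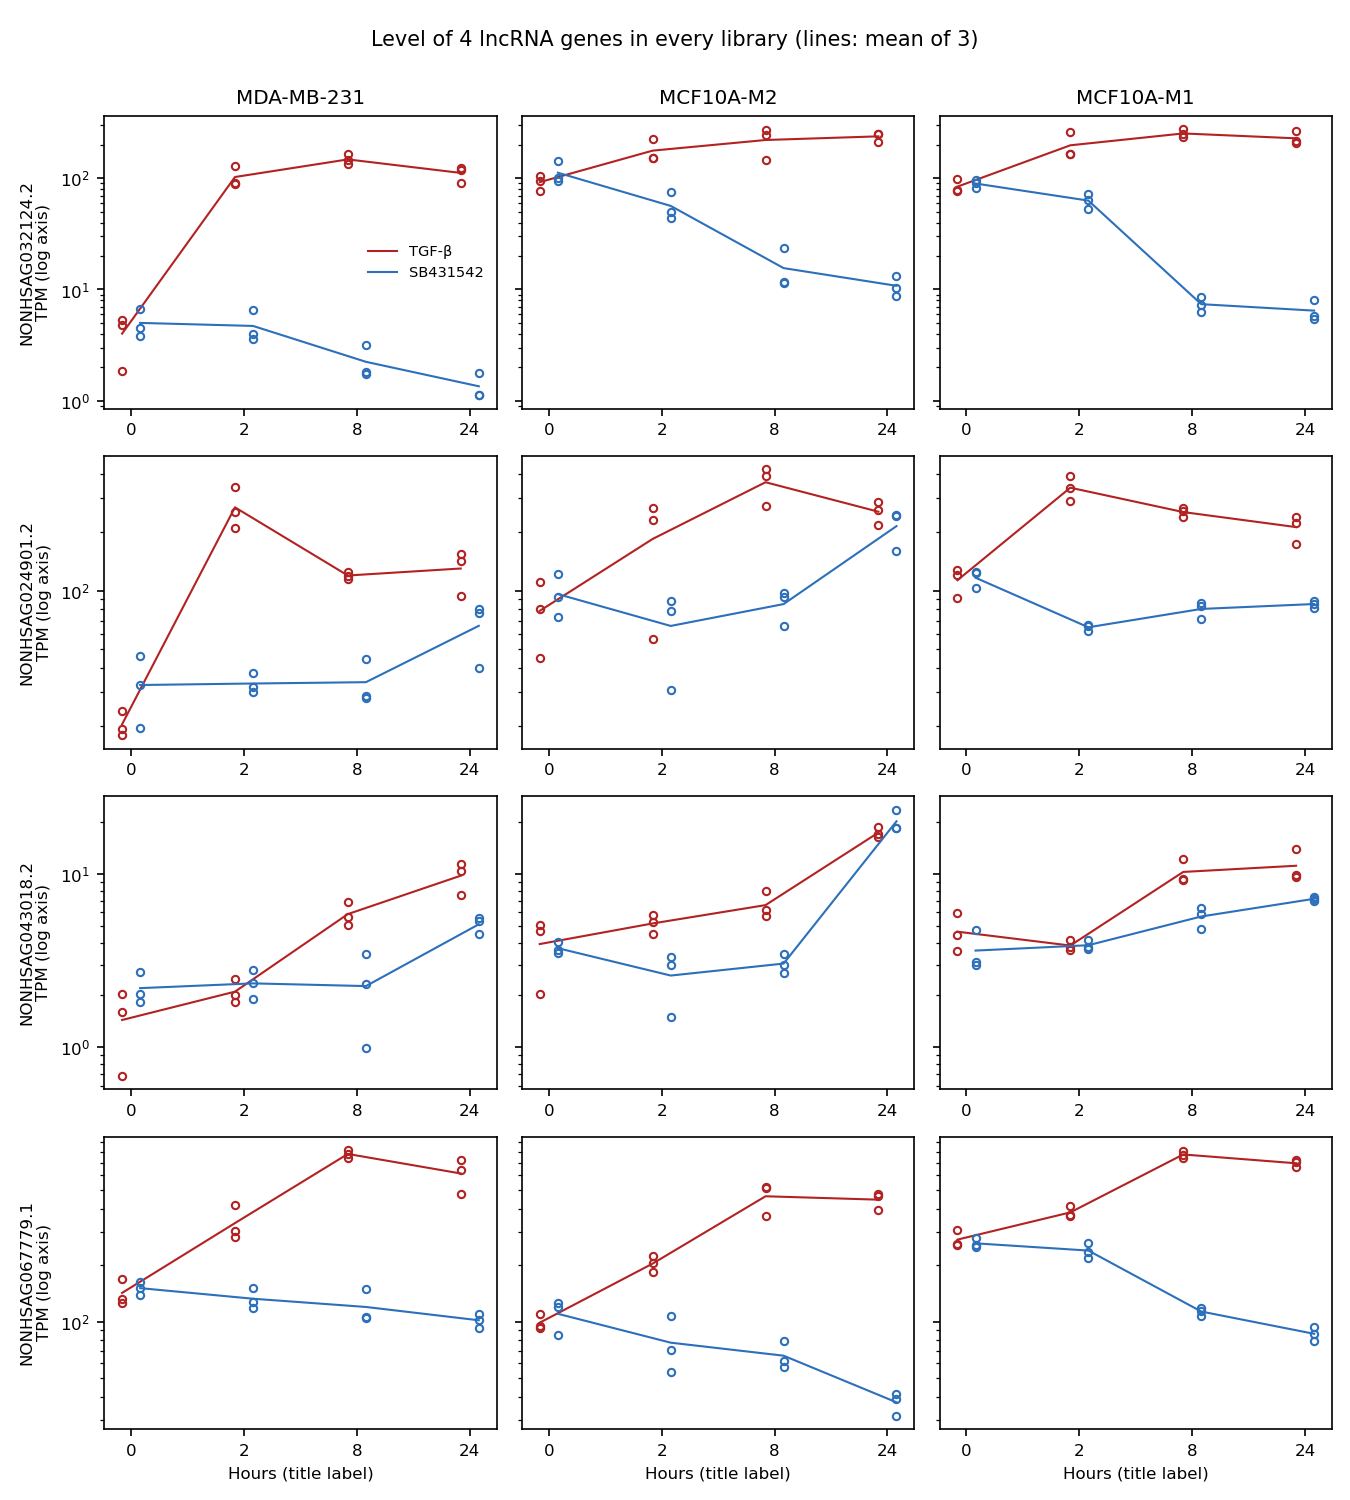
TPM of each of the 4 lncRNA genes (rows) in every library, on a log axis, against the hour in the sample titles, for MDA-MB-231, MCF10A-M2 and MCF10A-M1 (columns). Points are single libraries, shifted sideways by arm, and lines join the means of 3; NONHSAG032124.2 under TGF-β in MDA-MB-231 goes over 0, 2, 8 and 24 h through means of 4.0, 103, 148 and 112 TPM.

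NONHSAG024901.2 had an early peak under TGF-β in MDA-MB-231 and M1 and a later one in M2. MDA-MB-231 libraries with TGF-β had 17.9, 19.4 and 24.0 TPM of it at 0 h, 342, 255 and 209 at 2 h, 119, 125 and 115 at 8 h, and 142, 94.3 and 154 at 24 h. M2 libraries with TGF-β had 44.8, 80.4 and 111 TPM at 0 h, 267, 230.3 and 56.2 at 2 h, 273, 421 and 392 at 8 h, and 287, 217 and 261 at 24 h. The M1 libraries with TGF-β had 91.7, 127 and 120.1 TPM at 0 h, 291, 388 and 339 at 2 h, 266, 239 and 257 at 8 h, and 224, 239.9 and 174 at 24 h. The highest mean was at 2 h in MDA-MB-231 (269 ± 67.4 TPM) and in M1 (339 ± 48.4 TPM), and at 8 h in M2 (362 ± 78.6 TPM). After rescaling by the median of ratios, the log2 difference from 0 h in M2 was larger at 24 h (2.89) than at 8 h (2.35). One M2 library at 2 h, with 56.2 TPM, stood inside the range of the untreated M2 libraries while the other 2 were above it, which gave this group a coefficient of variation of 61.1%. The 24 h difference was 2.62 ± 0.28 (log2, SE) in MDA-MB-231, 1.78 ± 0.44 in M2 and 0.91 ± 0.13 in M1, and the increase in TPM was 109.5 in MDA-MB-231, 176 in M2 and 99.4 in M1. As for NONHSAG032124.2, the treated MDA-MB-231 libraries stayed below the treated libraries of both other lines at 24 h, with 130.0 ± 31.4 TPM in MDA-MB-231, 255 ± 35.6 TPM in M2 and 212 ± 34.4 TPM in M1.

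By 24 h of SB the same gene had gone different ways in the lines. The MDA-MB-231 values with SB were 19.5, 32.5 and 45.7 TPM at the earliest time, 30.0, 31.8 and 37.7 at 2 h, 28.7, 28.0 and 44.4 at 8 h, and 76.9, 80.5 and 40.0 at 24 h. The M2 values with SB were 73.3, 92.9 and 122 TPM at the earliest time, 88.3, 78.1 and 30.7 at 2 h, 92.6, 65.4 and 97.5 at 8 h, and 244, 241 and 159 at 24 h. The M1 values with SB were 103, 124 and 123 TPM at the earliest time, 65.7, 61.6 and 66.6 at 2 h, 71.2, 86.4 and 83.5 at 8 h, and 88.6, 81.4 and 85.7 at 24 h. By 24 h the 3 M2 libraries stood above their earliest SB libraries and the 3 M1 libraries below theirs, while the MDA-MB-231 groups overlapped through 1 library at 40.0 TPM. The TGF-β libraries were 1.98 times the SB libraries at 24 h in MDA-MB-231 and 2.49 times in M1, without overlap, and 1.19 times in M2, where the ranges overlapped.

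NONHSAG043018.2 was scarce and late. Its TPM with TGF-β in MDA-MB-231 was 1.61, 2.02 and 0.687 at 0 h, 1.99, 1.82 and 2.47 at 2 h, 6.90, 5.06 and 5.66 at 8 h, and 11.4, 7.55 and 10.4 at 24 h. In M2 given TGF-β it was 4.71, 2.03 and 5.09 at 0 h, 4.50, 5.80 and 5.27 at 2 h, 5.74, 6.18 and 7.93 at 8 h, and 16.4, 17.0 and 18.6 at 24 h. In M1 given TGF-β it was 5.92, 3.58 and 4.44 at 0 h, 3.78, 4.18 and 3.65 at 2 h, 9.30, 12.2 and 9.37 at 8 h, and 9.59, 9.88 and 14.0 at 24 h. At 2 h the treated and untreated libraries overlapped in all 3 lines, at 8 h in none, and the mean was highest at 24 h in all 3. The 24 h difference was 2.46 ± 0.31 (log2, SE) in MDA-MB-231, 2.09 ± 0.27 in M2 and 1.18 ± 0.20 in M1, for increases of 8.34, 13.4 and 6.51 TPM in that order.

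The late increase of NONHSAG043018.2 was also seen with the inhibitor. With SB, MDA-MB-231 had 2.04, 2.73 and 1.82 TPM at the earliest time, 2.78, 2.34 and 1.90 at 2 h, 0.989, 2.33 and 3.45 at 8 h, and 5.34, 5.56 and 4.49 at 24 h. With SB, M2 had 3.49, 4.05 and 3.66 TPM at the earliest time, 3.32, 2.97 and 1.49 at 2 h, 3.46, 2.68 and 2.99 at 8 h, and 23.5, 18.4 and 18.5 at 24 h. With SB, M1 had 4.75, 3.13 and 2.97 TPM at the earliest time, 3.69, 4.19 and 3.77 at 2 h, 4.82, 5.91 and 6.34 at 8 h, and 7.21, 7.38 and 7.0 at 24 h. In each line the 24 h SB libraries stood above the earliest SB libraries. At 24 h the TGF-β mean was 1.91 times the SB mean in MDA-MB-231 and 1.55 times in M1, and in M2 it was 17.3 ± 1.12 TPM with TGF-β and 20.1 ± 2.93 TPM with SB, with overlapping ranges. For this gene in M2, then, the 24 h level with ligand was not above the level with the receptor blocked.

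NONHSAG067779.1 was abundant in every line before treatment and varied least between replicates, with a median coefficient of variation of 9.99% over the 24 groups, beside 16.0% for NONHSAG043018.2, 18.5% for NONHSAG024901.2 and 22.1% for NONHSAG032124.2. With TGF-β the MDA-MB-231 libraries had 132, 169 and 126 TPM at 0 h, 415, 305 and 283 at 2 h, 779.6, 741 and 821 at 8 h, and 723, 476 and 644 at 24 h. With TGF-β the M2 libraries had 95.1, 92.1 and 109 TPM at 0 h, 222, 205 and 184 at 2 h, 365, 518 and 511 at 8 h, and 476, 393 and 469 at 24 h. With TGF-β the M1 libraries had 256, 258 and 306 TPM at 0 h, 364, 367 and 413 at 2 h, 808, 744 and 774 at 8 h, and 663, 722 and 704 at 24 h. Every treated library lay above the untreated ones of its line, and the mean of the deposited TPM was highest at 8 h in all 3 lines. The log2 difference was 1.22 ± 0.18 (SE) in MDA-MB-231, 1.04 ± 0.21 in M2 and 0.48 ± 0.09 in M1 at 2 h. At 8 h it was 2.46 ± 0.18 in MDA-MB-231, 2.21 ± 0.21 in M2 and 1.51 ± 0.09 in M1. At 24 h MDA-MB-231 was no longer the highest, with 2.1 ± 0.18 beside 2.17 ± 0.21 in M2 and 1.35 ± 0.09 in M1. After rescaling by the median of ratios, the 24 h difference exceeded that at 8 h in M2 (3.28 against 2.30) and in M1 (1.74 against 1.45). In MDA-MB-231 it did not (2.44 against 2.67), so the hour of the peak moved with the scaling in M2 and M1. The increase in TPM at 24 h was 472 in MDA-MB-231, 347 in M2 and 423 in M1, the one gene of the 4 with its largest increase in TPM in MDA-MB-231.

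With SB the 24 h level of NONHSAG067779.1 was below the earliest level in all 3 lines, by the least in MDA-MB-231. The SB libraries of MDA-MB-231 had 138, 151 and 164 TPM at the earliest time, 152, 128 and 118 at 2 h, 104, 105 and 149.8 at 8 h, and 110.3, 102 and 93.1 at 24 h. The SB libraries of M2 had 85.4, 119 and 126 TPM at the earliest time, 107, 71.0 and 53.9 at 2 h, 61.6, 57.7 and 78.7 at 8 h, and 38.8, 41.5 and 31.6 at 24 h. The SB libraries of M1 had 255, 251 and 278 TPM at the earliest time, 218, 236 and 264 at 2 h, 119, 114 and 107 at 8 h, and 93.8, 79.3 and 85.7 at 24 h. At 24 h no SB library overlapped the earliest ones of its line. The TGF-β mean at 24 h was 6.03 times the SB mean in MDA-MB-231, 12.0 times in M2 and 8.07 times in M1.

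Read together at 24 h of TGF-β, all 4 genes passed an adjusted p of 0.05 as higher in each line, which is what they were chosen for, and nothing further is read from it. Of all lncRNA genes in the fit, 1.23% were called higher in MDA-MB-231, 4.21% in M2 and 2.6% in M1. The median log2 change of the 4 genes was 2.54 in MDA-MB-231, 1.93 in M2 and 1.27 in M1, beside a median over all genes of -0.25 in MDA-MB-231, -0.74 in M2 and -0.25 in M1. The order of the lines moved with the scaling, and the cause was not tested. After rescaling, the median over all genes in M2 was -0.13, and 3076 genes were called higher and 3209 lower there, beside 714 and 7651 as deposited. In M1, 1418 genes were called higher and 1210 lower after rescaling, beside 544 and 2917 as deposited. After rescaling by the median of ratios, the log2 difference of NONHSAG067779.1 was 2.44 in MDA-MB-231, 3.28 in M2 and 1.74 in M1, and that of NONHSAG043018.2 was 2.77 in MDA-MB-231, 3.14 in M2 and 1.55 in M1, so that MDA-MB-231 led for 2 of the 4 genes. NONHSAG032124.2 was 5.07 in MDA-MB-231, 2.48 in M2 and 1.83 in M1, and NONHSAG024901.2 was 2.95 in MDA-MB-231, 2.89 in M2 and 1.3 in M1. Without the second MDA-MB-231 library at 0 h, or without the second one at 24 h, MDA-MB-231 led for all 4 genes on the deposited scale.

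**Figure D2:**
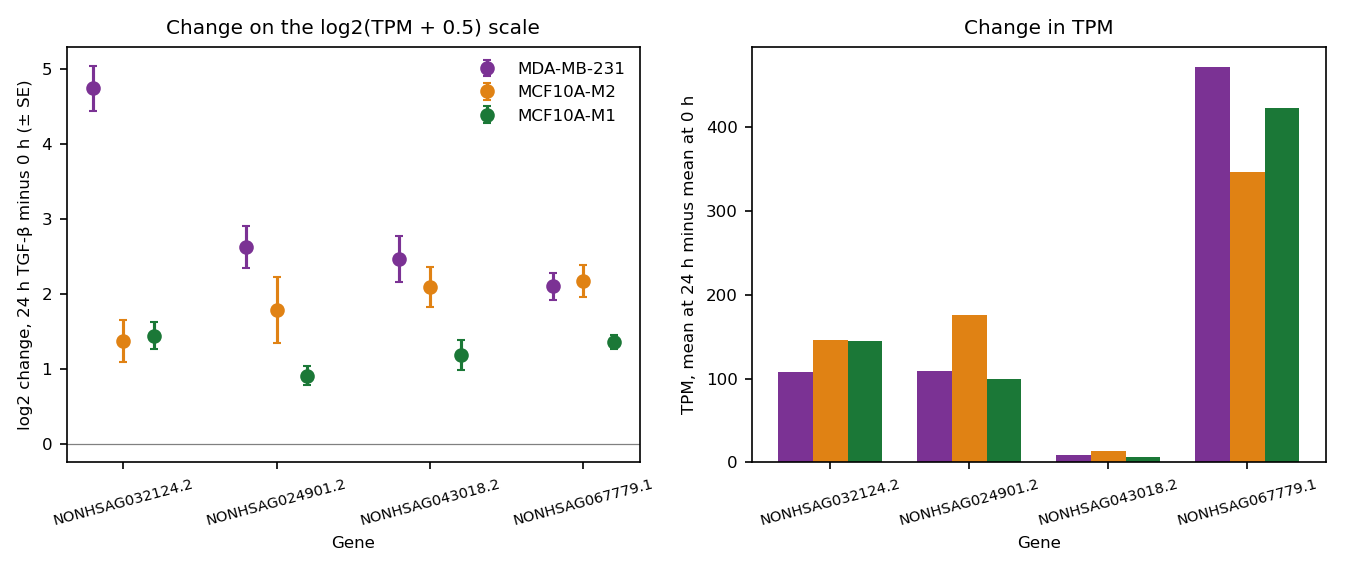
Left, the difference between 24 h of TGF-β and 0 h on the log2(TPM + 0.5) scale with its standard error; right, the same difference of means in TPM (bars from 0, no error shown), for MDA-MB-231, MCF10A-M2 and MCF10A-M1. On the deposited scale MDA-MB-231 has the largest log2 difference for 3 genes. For NONHSAG032124.2 it pairs a log2 difference of 4.74 with 108 TPM, where M2 gained 146 TPM.

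Before any change could be compared, the lines already differed in 3 of the 4 genes. The earliest SB libraries, which are not part of the TGF-β arm, were compared for this (limma, Benjamini-Hochberg adjusted p over all genes of a pair of lines). A choice by the largest rise in MDA-MB-231 favours genes that start low there. These libraries overlapped the 0 h controls, so the p-values for lower levels in MDA-MB-231 are not free of that choice. NONHSAG032124.2 averaged 5.00 ± 1.44 TPM in MDA-MB-231, 112 ± 26.4 TPM in M2 and 89.9 ± 7.32 TPM in M1. It was 22.5 times lower in MDA-MB-231 than in M2 (log2 -4.37 ± 0.30 SE, adjusted p = 1.99e-15) and 18.0 times lower than in M1 (-4.07 ± 0.25, adjusted p = 1.71e-16). NONHSAG024901.2 averaged 32.6 ± 13.1 TPM in MDA-MB-231, 95.9 ± 24.3 TPM in M2 and 116 ± 11.8 TPM in M1, and was lower in MDA-MB-231 than in M2 (-1.59 ± 0.39, adjusted p = 0.00132) and than in M1 (-1.90 ± 0.23, adjusted p = 1.13e-08). With the top 10 genes removed before scaling, the difference from M2 was -0.94 and did not pass (adjusted p = 0.0892, in a range of 0.000946 to 0.0892 over 10 settings). NONHSAG043018.2 averaged 2.2 ± 0.475 TPM in MDA-MB-231, 3.74 ± 0.287 TPM in M2 and 3.62 ± 0.984 TPM in M1. Its differences missed the threshold for MDA-MB-231 against M2 (-0.66 ± 0.29, adjusted p = 0.0669) and against M1 (-0.60 ± 0.26, adjusted p = 0.0575), and that against M1 passed without the second MDA-MB-231 library (-0.74, adjusted p = 0.0411).

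NONHSAG067779.1 averaged 151 ± 12.6 TPM in MDA-MB-231, 110.3 ± 21.8 TPM in M2 and 261 ± 14.9 TPM in M1 in the same libraries. It was lower than in M1 both in MDA-MB-231 (limma log2 difference -0.79 ± 0.14 SE, adjusted p = 1.89e-05; -0.35 after rescaling) and in M2 (-1.26 ± 0.16, adjusted p = 4.76e-07; -1.0 after rescaling). MDA-MB-231 was higher than M2 by 0.47 ± 0.20, which did not pass (adjusted p = 0.063), although the libraries did not overlap, and it passed after rescaling (0.70, adjusted p = 2.08e-06) and without the third M2 library (0.58, adjusted p = 0.0454). In all, 3 of the 4 genes were lower in MDA-MB-231 than in M1, where 30% of the genes tested were, and 2 were lower than in M2, where 19.6% were. Between M2 and M1, 1 of the 4 was lower in M2, where 14.4% of genes were, and the differences of NONHSAG032124.2 (0.30 ± 0.24), NONHSAG024901.2 (-0.30 ± 0.35) and NONHSAG043018.2 (0.06 ± 0.23) did not pass. After rescaling that of NONHSAG032124.2 was 0.56 and passed (adjusted p = 0.0116, the lowest of 10 settings, the highest being 1), and those of NONHSAG024901.2 (-0.04) and NONHSAG043018.2 (0.29) did not. The median over the 4 genes was -1.35 for MDA-MB-231 minus M1, -1.13 for MDA-MB-231 minus M2 and -0.12 for M2 minus M1, beside medians over all genes of -0.33, -0.04 and -0.27 in that order.

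The 0 h controls of the TGF-β arm overlapped these libraries. The earliest SB libraries differed from the 0 h controls by log2 0.37 ± 0.30 (SE) for NONHSAG032124.2, 0.59 ± 0.28 for NONHSAG024901.2, 0.53 ± 0.31 for NONHSAG043018.2 and 0.09 ± 0.18 for NONHSAG067779.1 in MDA-MB-231. In M2 and M1 the same differences lay between -0.32 and 0.35, and the libraries of both groups overlapped for each of the 4 genes in each line.

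The time course with SB asked which of the 4 genes changed when the type I receptor kinase was blocked with no ligand added. Each time was compared with the earliest SB libraries of its line in limma. NONHSAG032124.2 changed the most. At 8 h its log2 change was -2.87 ± 0.28 (SE) in M2 (adjusted p = 5.37e-06; -2.44 after rescaling) and -3.53 ± 0.18 in M1 (adjusted p = 1.85e-11), while in MDA-MB-231 it was -1.02 ± 0.30 and missed the threshold (adjusted p = 0.141). By 24 h it had fallen in all 3 lines, by 3.72 times in MDA-MB-231 (-1.56 ± 0.30, adjusted p = 0.00579), 10.4 times in M2 (-3.32 ± 0.28, adjusted p = 1.43e-08; -2.42 after rescaling) and 13.9 times in M1 (-3.72 ± 0.18, adjusted p = 2.07e-12). The call at 2 h in M2 (-1.0 ± 0.28, adjusted p = 0.049) was lost after rescaling, where the change was -0.51 (adjusted p = 0.349), and its adjusted p ran from 0.0275 to 1 over 10 settings. It was lost also without the second earliest library, the third earliest, the second 2 h library or the third at 2 h, with adjusted p from 0.0061 to 0.276 as each library was left out. At 2 h in M1 the change of -0.52 ± 0.18 did not pass (adjusted p = 0.398).

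NONHSAG067779.1 fell with SB in M1 at 8 h (limma log2 change -1.20 ± 0.09 SE, adjusted p = 1.13e-08) and 24 h (-1.59 ± 0.09, adjusted p = 4.23e-11), to a mean of 86.3 ± 7.25 TPM at 24 h against 261 ± 14.9 TPM at the earliest time. In M2 it fell at 24 h by -1.54 ± 0.21 on the deposited scale (adjusted p = 1.07e-05). After rescaling that change was -0.63 (adjusted p = 0.000245), and with the top 10 genes removed before scaling it was -0.90 and did not pass (adjusted p = 0.0744, the highest of 10 settings, the lowest being 2.41e-06). At 2 h in M2 the change was -0.55 ± 0.21 (adjusted p = 0.142), and -0.05 after rescaling (adjusted p = 0.935). It passed without the first M2 library at 2 h (-0.81, adjusted p = 0.00804; 0.00804 to 0.603 as each library was left out). At 8 h in M2 it was -0.73 ± 0.21 (adjusted p = 0.0718), and -0.30 after rescaling (adjusted p = 0.202; 0.0471 to 0.955 over 10 settings). In MDA-MB-231 at 24 h it was -0.57 ± 0.18, with libraries that did not overlap, and missed the threshold (adjusted p = 0.113) on the deposited scale. After rescaling nearly the same change, -0.54, passed (adjusted p = 0.00631), and the adjusted p ran from 0.00247 to 0.194 over 10 settings.

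NONHSAG043018.2 rose with SB in both MCF10A lines. At 24 h it was 5.39 times higher than at the earliest time in M2 (limma log2 change 2.28 ± 0.27 SE, adjusted p = 1.65e-06; 3.12 after rescaling) and 1.99 times higher in M1 (0.93 ± 0.20, adjusted p = 0.00614). In MDA-MB-231 it was 2.34 times higher, with no overlap of libraries, which missed the threshold on the deposited scale (1.07 ± 0.31, adjusted p = 0.0732) and passed after rescaling (1.07, adjusted p = 0.0126; 0.0102 to 0.123 over 10 settings). At 2 and 8 h no change of this gene passed in any line, the nearest being M1 at 8 h (0.61 ± 0.20, adjusted p = 0.106).

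For NONHSAG024901.2 the M1 and M2 changes had opposite signs at 24 h, where that of M1 did not pass. In M1 the gene fell at 2 h (limma log2 change -0.84 ± 0.13 SE, adjusted p = 0.00536) and at 8 h (-0.53 ± 0.13, adjusted p = 0.0241). At 24 h the M1 change was -0.44 ± 0.13 (adjusted p = 0.0538). The 2 h call was lost without the third earliest library (adjusted p = 0.0601), without the second 2 h library (adjusted p = 0.0636) and when the fit held the compared groups only (adjusted p = 0.154). The 8 h call was lost under quantile normalization (adjusted p = 0.0533) and with the top 10 genes removed before scaling (adjusted p = 0.0933), in a range of 0.0159 to 0.0933 over 10 settings. It was lost also without the second earliest library, the third earliest, the first 8 h library or the third at 8 h, with adjusted p from 0.0247 to 0.132 as each library was left out. At 24 h the change passed without the first earliest library (-0.53, adjusted p = 0.0456). At 2 h the M2 change was also negative and did not pass (-0.65 ± 0.44, adjusted p = 0.411). At 8 h in M2 it was -0.16 ± 0.44 (adjusted p = 0.864), and 0.27 after rescaling. In M2 the gene rose at 24 h, to 215 ± 48.2 TPM against 95.9 ± 24.3 TPM at the earliest time (1.16 ± 0.44, adjusted p = 0.0414; 2.08 after rescaling, adjusted p = 0.000492). On the deposited scale that call was lost when any 1 of the 3 earliest libraries or of the first 2 libraries at 24 h was left out, with adjusted p from 0.042 to 0.117. In MDA-MB-231 at 24 h the change was 1.02 ± 0.28 and missed the threshold (adjusted p = 0.0629), and it passed without the third library at 24 h (1.34, adjusted p = 0.0129), without the third earliest library (1.3, adjusted p = 0.0329) and after rescaling (1.04, adjusted p = 0.0227).

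**Figure D3:**
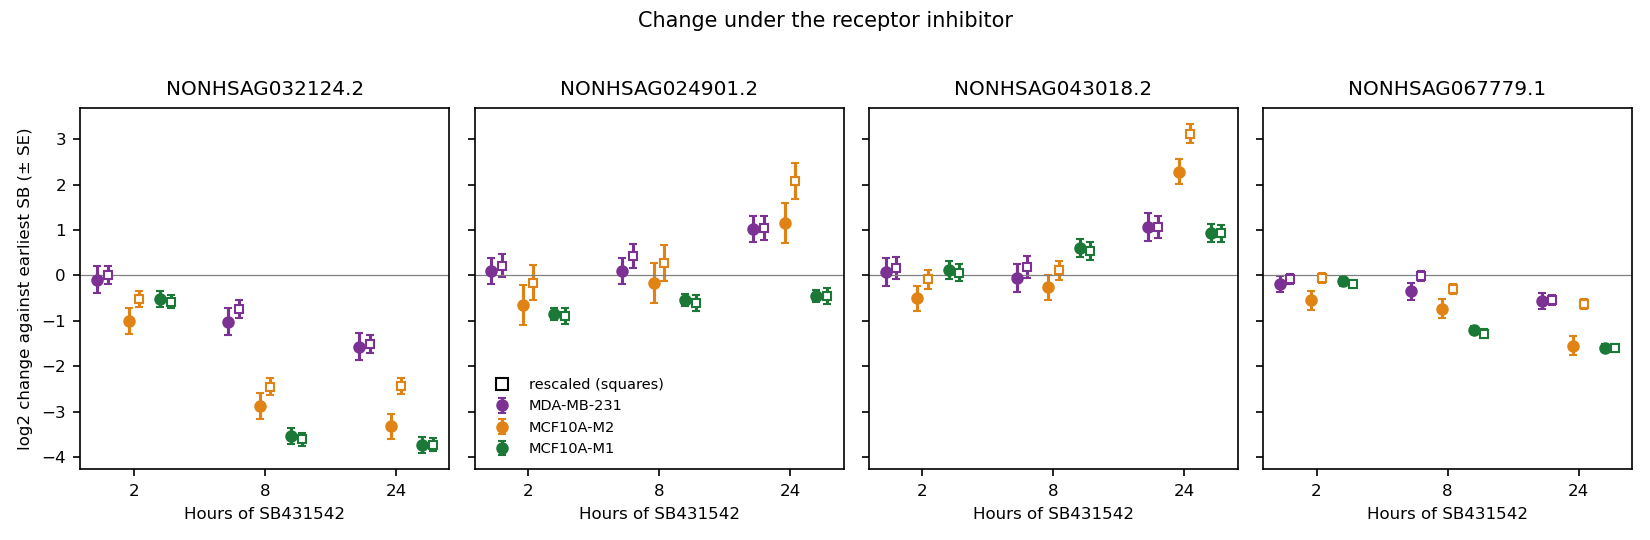
Log2 change of each gene with SB431542 against the earliest SB libraries of the same line at 2, 8 and 24 h, with standard errors, from the deposited TPM (filled circles) and after rescaling by the median of ratios (open squares), for MDA-MB-231, MCF10A-M2 and MCF10A-M1. At 24 h NONHSAG032124.2 stands between -3.72 and -1.56 on the deposited scale, and NONHSAG043018.2 between 0.93 and 2.28.

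Counted over the 4 genes, 0 passed at 2 h in MDA-MB-231 (0 at an unadjusted p under 0.05), where limma called 0 of all 16552 genes (1007 at an unadjusted p under 0.05). At 8 h in MDA-MB-231 again 0 of the 4 passed, with 1 at an unadjusted p under 0.05, where 0.0181% of genes were called higher and 0.224% lower. At 24 h in MDA-MB-231, 1 was lower and 0 higher, beside 1.01% of genes lower and 0.882% higher, and all 4 had an unadjusted p under 0.05. M2 had 1 lower at 2 h (2.98% of genes lower) and 1 lower at 8 h (1.88% lower), and 2 lower and 2 higher at 24 h, where 35.2% of genes were lower and 2.01% higher. M1 had 1 lower at 2 h (0.0526% lower), 3 lower at 8 h (1.81% lower), and 2 lower and 1 higher at 24 h (3.24% lower and 2.01% higher). The median log2 change of the 4 genes at 24 h was 0.23 in MDA-MB-231, -0.19 in M2 and -1.02 in M1, beside -0.05, -0.63 and 0.01 over all genes in that order. The 4 genes did not share a direction. After rescaling the median over all genes in M2 was -0.09 at 24 h, with 1877 genes called higher and 1640 lower, beside 341 and 5963 as deposited. Whether the SB libraries had any part in choosing the 4 genes is not recorded. If they did, low levels with SB were favoured by the choice, and the limma p-values of the SB course are not free of it.

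The change over 24 h of SB was then compared between lines as an interaction in limma. The earliest SB libraries enter this contrast, and whether SB libraries had a part in the choice is not recorded. Its p-values therefore cannot be called free of the choice. NONHSAG032124.2 changed less in MDA-MB-231 than in M1 (difference of log2 changes 2.15 ± 0.36 SE, adjusted p = 0.000187) and less than in M2 (1.75 ± 0.42, adjusted p = 0.0036; 0.92 after rescaling, adjusted p = 0.0205). With the top 10 genes removed before scaling the difference from M2 was 0.94 and did not pass (adjusted p = 0.292, in a range of 0.000834 to 0.292 over 10 settings). Its M2 and M1 changes differed by 0.40 ± 0.34 (adjusted p = 0.449), and by 1.32 after rescaling (adjusted p = 4.49e-05). In MDA-MB-231 this gene started at 5.00 TPM, nearer to the pseudocount of 0.5 TPM than in the other lines. The difference from M1 ran from 1.92 to 2.35 and passed in 10 of 10 settings, pseudocounts of 0.1 and 1 among them.

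NONHSAG067779.1 also changed less in MDA-MB-231 than in M1 (limma difference 1.03 ± 0.20 SE, adjusted p = 0.00154; 1.09 after rescaling). Its difference between MDA-MB-231 and M2 was 0.97 ± 0.28 on the deposited scale (adjusted p = 0.0145) and 0.09 after rescaling (adjusted p = 0.801), and without the third earliest M2 library it was 0.87 (adjusted p = 0.0538). It passed in 7 of 10 settings, and not in the 3 that rescale the libraries. The M2 and M1 changes of this gene differed by 0.05 ± 0.23 (adjusted p = 0.906) on the deposited scale and by 1.02 after rescaling (adjusted p = 7.99e-07).

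NONHSAG024901.2 was the gene whose 24 h change had opposite signs, though its M1 change did not pass by itself. Its 24 h SB change was higher in M2 than in M1 by 1.61 ± 0.49 (limma log2 difference, SE, adjusted p = 0.0182; 2.58 after rescaling), and higher in MDA-MB-231 than in M1 by 1.46 ± 0.33 (adjusted p = 0.00651), the second being lost when the fit held the compared groups only (adjusted p = 0.0611; 0.00308 to 0.0611 over 10 settings). MDA-MB-231 and M2 differed by -0.15 ± 0.56 (adjusted p = 0.898) as deposited and by -1.04 ± 0.50 after rescaling, which did not pass either (adjusted p = 0.205). NONHSAG043018.2 rose more in M2 than in M1 (1.35 ± 0.33, adjusted p = 0.00329; 2.32 after rescaling) and less in MDA-MB-231 than in M2 (-1.21 ± 0.41, adjusted p = 0.0345; -2.05 after rescaling). The last was lost without any of 7 of the 12 libraries compared, with adjusted p from 0.0359 to 0.0918 as each was left out. In M2 these were the first and the third earliest libraries and the first one at 24 h, and in MDA-MB-231 the first and the second earliest libraries and the first and the third one at 24 h. Between MDA-MB-231 and M1 this gene differed by 0.14 ± 0.36 (adjusted p = 0.901). In MDA-MB-231 minus M1, 3 of the 4 genes had a higher change, where 1.52% of genes did. In MDA-MB-231 minus M2, 2 had a higher and 1 a lower change, where 15.7% of genes were higher and 1.27% lower. In M2 minus M1, 2 had a higher change, where 1.53% did. The medians over the 4 genes were 1.25, 0.41 and 0.87 for these pairs in turn, and the medians over all genes -0.05, 0.48 and -0.51.

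Ranked over the 24 groups, NONHSAG032124.2 ran over 189 times, with its highest mean in M1 at 8 h of TGF-β (254 TPM) and its lowest in MDA-MB-231 at 24 h of SB (1.34 TPM). Of the 23 pairs of groups next to each other in that order, 20 overlapped. The widest step, of 3.63 times, lay between M2 at 2 h of SB (56.5 TPM) and M2 at 8 h of SB (15.6 TPM). Above it stood all M1 and M2 groups other than those with 8 or 24 h of SB, and the MDA-MB-231 groups with 2, 8 or 24 h of TGF-β. NONHSAG024901.2 ran over 17.7 times, with M2 at 8 h of TGF-β at the top (362 TPM) and untreated MDA-MB-231 at the bottom (20.4 TPM), and 22 of 23 neighbouring pairs overlapped. NONHSAG043018.2 ran over 14.0 times, its highest group being M2 at 24 h of SB (20.1 TPM) and its lowest untreated MDA-MB-231 (1.44 TPM), and 21 of 23 neighbouring pairs overlapped. The top 2 groups for it were the 2 M2 groups at 24 h, set off by a step of 1.55 times from M1 at 24 h of TGF-β. NONHSAG067779.1 ran over 20.9 times, with MDA-MB-231 at 8 h of TGF-β (780.5 TPM) at the top and M2 at 24 h of SB (37.3 TPM) at the bottom, and 20 of 23 neighbouring pairs overlapped.

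How alike the 4 patterns were was described with Pearson's r over the 24 group means on the log2 scale. The points share lines, and at each point both genes come from the same libraries with the same scaling, so r is given with no test. NONHSAG032124.2 and NONHSAG024901.2 had r = 0.76, and NONHSAG032124.2 and NONHSAG067779.1 had r = 0.69. With each line's mean subtracted, the second of these was the highest of the 6 pairs at r = 0.91. That step removes level differences between lines, but not time in culture or the scaling of libraries. NONHSAG043018.2 was least like the others, with r = 0.27 to NONHSAG067779.1, 0.38 to NONHSAG032124.2 and 0.65 to NONHSAG024901.2.

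Of 23565 lncRNA genes compared in the same way, the one most like NONHSAG067779.1 was NONHSAG014173.2 (r = 0.97; 0.98 with line means subtracted), and 3 genes reached r = 0.9. NONHSAG014173.2 averaged 693 ± 107 TPM at 24 h of TGF-β against 223 ± 27.5 TPM at 0 h in MDA-MB-231, 399 ± 35.1 TPM against 122 ± 28.0 TPM in M2, and 480.5 ± 12.6 TPM against 299 ± 14.2 TPM in M1. With 24 h of SB it averaged 167 ± 27.7 TPM in MDA-MB-231, 69.7 ± 8.72 TPM in M2 and 126 ± 3.48 TPM in M1. The gene most like NONHSAG032124.2 was NONHSAG082069.1 (r = 0.92; 0.93 with line means subtracted), and 2 genes reached r = 0.9. Its mean was 13.4 ± 3.10 TPM at 24 h of TGF-β against 1.68 ± 0.396 TPM at 0 h in MDA-MB-231. In the MCF10A lines it was already high without ligand, and its 24 h mean with TGF-β was 16.2 ± 5.30 TPM against 24.8 ± 2.90 TPM at 0 h in M2, and 86.2 ± 6.62 TPM against 53.9 ± 4.66 TPM in M1. On the log2 scale its M2 difference was -0.64 as deposited and 0.44 after rescaling, so its sign turned with the scaling. No gene reached r = 0.9 with NONHSAG024901.2, whose highest was 0.87, or with NONHSAG043018.2, whose highest was 0.82. With line means subtracted, 2 genes reached it with NONHSAG024901.2 (highest 0.92), 10 with NONHSAG067779.1, 1 with NONHSAG032124.2 and 0 with NONHSAG043018.2.

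**Figure D4:**
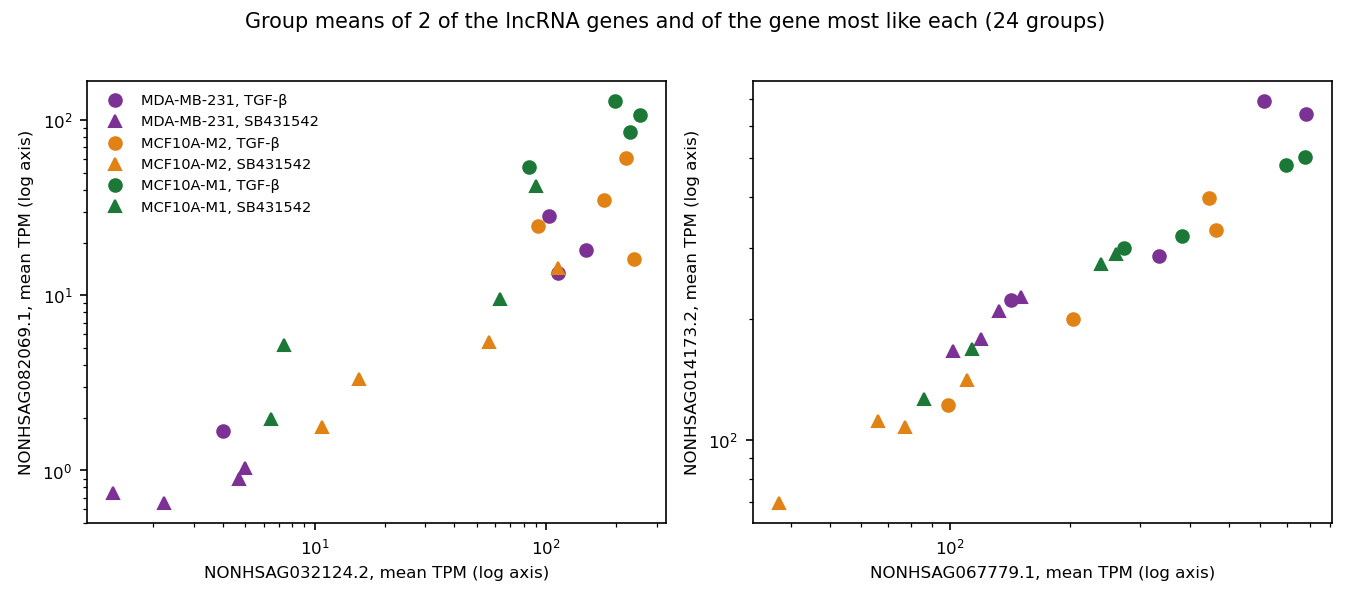
Mean TPM in the 24 groups (log axes, 3 libraries each) of NONHSAG032124.2 against NONHSAG082069.1 (left) and of NONHSAG067779.1 against NONHSAG014173.2 (right); colours are the lines, circles TGF-β and triangles SB431542, and the 0 h points of both arms are included. The right panel has r = 0.97 and the left r = 0.92 over the 24 points, which share lines. At each point both genes come from the same 3 libraries.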

How the data were processed

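Total RNA of 72 libraries was sequenced. The authors deposited TPM values of 96411 lncRNA genes; TPM over lncRNA genes alone makes each value depend on every other lncRNA, abundant ones above all. Reads were processed with FastQC, cutadapt 2.10, HISAT2 2.2.0 and StringTie 1.3.6 on GRCh38, per the submitters' processing notes; for the annotation version, strand and filters, nothing is given in the sources used here. The design text gives fewer samples than the labels, and the labels were followed.

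Genes with at least 0.5 TPM in at least 3 libraries were fitted on log2(TPM + 0.5) with limma 3.58.1 (R 4.3.3, data.table, version 1.17.8), using 24 libraries per line or 48 per pair of lines. Fold changes on this scale understate those of low genes. Tests were two-sided, with Benjamini-Hochberg adjustment over all genes fitted and a threshold of 0.05; p-values measure the spread between these samples. All 4 genes passed the filter in each line. The fit was also run on simulated data with 200 changed genes, for the 24 h SB contrast within each line, and the outcome is not given here. That simulation held no shift in scaling between groups and did not cover the comparisons between lines. Figures were drawn with matplotlib 3.10.9 in Python 3.11.15.

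The 4 genes and the rules were chosen with earlier results of these data known. For each of the 4 genes the gene of highest r was found, and of these the 2 with the highest r were named. NONCODE identifiers were looked for as text in RefSeq and GENCODE, with 0 found in each. Positions and sequences were not compared, so this cannot show whether the 4 genes are annotated there under other names. Same-numbered libraries deviated together, with r over 0.1 in all 3 pairs, in 1 of the 12 comparisons looked at (MDA-MB-231 minus M2, earliest SB, lowest r 0.111), where the replicate block kept 2 of the 4 genes called. Alternatives were median-of-ratios scaling, quantile normalization, scaling without the top 10 genes by mean TPM, pseudocounts of 0.1 and 1, a fit with no filter, a filter of mean TPM 1, the replicate block, fits of the compared groups only, and fits without each library in turn.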

Additional observations from a re-analysis of the deposited data

Results flagged for a closer look

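For 8 gene and line combinations the 24 h SB change differed between lines by a limma interaction test on the deposited scale. No TGF-β library enters this contrast, but the earliest SB libraries do. A choice by the largest rise in MDA-MB-231 favours genes that start low there. Whether the choice used SB libraries is not recorded either, so these p-values cannot be called free of it. NONHSAG032124.2 fell less in MDA-MB-231 than in M1 (difference of log2 changes 2.15) and than in M2 (1.75). NONHSAG067779.1 had a less negative change in MDA-MB-231 than in M1 (1.03) and, on the deposited scale, than in M2 (0.97). NONHSAG024901.2 had a higher change in MDA-MB-231 than in M1 (1.46) and in M2 than in M1 (1.61), with M1 alone below its starting level. The first of these did not pass when the limma fit held the compared groups only (adjusted p = 0.0611). NONHSAG043018.2 had a smaller increase in MDA-MB-231 than in M2 (-1.21) and a larger one in M2 than in M1 (1.35). Of all genes fitted, 1.52% had a higher change in MDA-MB-231 than in M1, and 1.53% in M2 than in M1. In MDA-MB-231 minus M2, 15.7% were higher and 1.27% lower. For the 3 results of MDA-MB-231 against M2, the number of genes detected in M2 at 24 h moved with the comparison. After rescaling the values were 0.92 for NONHSAG032124.2, 0.09 for NONHSAG067779.1 (limma adjusted p = 0.801, not passing) and -2.05 for NONHSAG043018.2. On the deposited scale that of NONHSAG043018.2 passed in 5 of 12 fits without 1 library. The M2 minus M1 differences of NONHSAG032124.2 (1.32, adjusted p = 4.49e-05) and NONHSAG067779.1 (1.02, adjusted p = 7.99e-07) passed after rescaling, not as deposited.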

How the results depend on the processing

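No direction reversed for a called result. The counts of the 4 genes past the threshold that moved by more than 1.5 times in a setting come first. At 24 h of SB in MDA-MB-231 the count was 1, and it was 2 with a mean of at least 1 TPM, 4 with median-of-ratios or quantile scaling, 3 with only the compared groups, and 1 to 2 as each library was left out. At 2 h in M2 it was 1, and 0 with a pseudocount of 0.1, no filter, median-of-ratios, scaling without the 10 most abundant genes, quantile normalization, the replicate block or only the compared groups, and 0 to 2 as each library was left out. At 8 h in M2 it was 1, and 2 with a mean of at least 1 TPM or quantile normalization. At 2 h in M1 it was 1, and 0 with only the compared groups, and 0 to 1 as each library was left out. For the 24 h change in MDA-MB-231 minus M2 it was 3, and 0 without the 10 most abundant genes in the scaling, 2 with a pseudocount of 0.1, no filter, median-of-ratios or quantile normalization, and 1 to 3 as each library was left out. For M2 minus M1 it was 1 in the earliest SB libraries and 2 under median-of-ratios, and for the 24 h change 2, and 4 under median-of-ratios or quantile normalization. Smaller moves were between 3 and 2 for M1 at 8 h, 3 and 4 for M1 at 24 h, 4 and 3 for M2 at 24 h, 3 and 4 for MDA-MB-231 minus M1 and 2 and 3 for MDA-MB-231 minus M2 in the earliest SB libraries, and 3 and 2 for the 24 h change in MDA-MB-231 minus M1, the main count first. Counts over all genes moved by more than 1.5 times as well. For the SB course in MDA-MB-231 limma called 0 genes at 2 h (0 to 7 over the other settings), 40 at 8 h (2 to 66, and 3 to 150 as each library was left out) and 314 at 24 h (176 to 825, and 106 to 351). For M2 it called 507 at 2 h (0 to 1094, and 0 to 3359 as each library was left out), 340 at 8 h (16 to 469, and 56 to 276) and 6304 at 24 h (1368 to 6391, and 4034 to 6263). For M1 it called 17 at 2 h (1 to 28, and 5 to 17), 770 at 8 h (642 to 1125, and 439 to 522) and 1097 at 24 h (964 to 1430, and 700 to 761 as each library was left out). Between lines the earliest SB libraries gave 9421 for MDA-MB-231 minus M1 (6340 to 10063), 7276 for MDA-MB-231 minus M2 (4362 to 8493) and 3976 for M2 minus M1 (2694 to 4417, and 2599 to 3909), and the 24 h changes gave 620 (486 to 1168, and 402 to 707), 3432 (555 to 4030, and 2191 to 3665) and 4225 (1335 to 4867) for the same pairs in turn. In 11 of the 12 comparisons looked at, same-numbered libraries did not reach r over 0.1 in all 3 pairs, with r as low as -0.326. That does not show that they were unpaired. Beside the M2 count at 2 h, the replicate block moved 1 more call in limma. It was that of NONHSAG024901.2 in M1 at 24 h, which then passed (adjusted p = 0.0443). TPM keeps no depth, so how far low counts limit NONHSAG043018.2, the least abundant of the 4, is unknown. The cause of these moves was not tested.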

Other observations

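Genes whose NONCODE numbers lie within 2 of those of the 4 genes were also read. Since positions were not used here, it is not known whether neighbouring numbers are neighbouring genes. Of 12 such genes, 3 were at 0 in every library. The one next to NONHSAG024901.2, NONHSAG024902.2, was abundant in all libraries, with a mean of 203 TPM and a range of 75.1 to 282 TPM. Its group means had r = -0.03 with those of NONHSAG024901.2 over 24 groups, and its 24 h TGF-β difference was 0.06 in MDA-MB-231, -1.26 in M2 and -0.09 in M1 on the log2 scale. The median over all genes in M2 was -0.74, and after rescaling the differences of this gene were 0.40, -0.15 and 0.30 in the same order of lines. The one nearest to NONHSAG032124.2 among those detected, NONHSAG032126.3, had a mean of 1.96 TPM, r = 0.80 with NONHSAG032124.2, and a 24 h TGF-β difference of 1.67 in MDA-MB-231, 0.72 in M2 and 1.06 in M1 (1.88, 1.49 and 1.40 after rescaling). The other detected ones averaged under 1 TPM.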
